A study of Mus musculus with 30 samples.

Results

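The genes described here encode the proteins that recognise and carry out pre-mRNA splicing and package nascent transcripts in mouse embryonic stem cells: the SR proteins (Srsf genes), the proteins of the small nuclear ribonucleoprotein particles (Snrp genes), the SF3a and SF3b subunits, and the heterogeneous nuclear ribonucleoproteins (Hnrnp genes). Members were chosen by gene symbol alone, and Snrpn and names ending in -ps were left out. The rule found 52 of the 55291 gene names in the washout counts and 51 of the 21859 genes in each time-course gene table. They were 11 SR, 12 Snrp, 9 SF3a and SF3b and 20 hnRNP genes. Snrpert, a 279-base locus inside Rnf24, had 0 counts in all 8 washout libraries and was not in the time-course gene tables, so 51 members could be tested.

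Splicing removes introns in steps that small nuclear RNAs and their proteins organise. The U1 particle binds the start of an intron, and the U2 particle, with SF3a and SF3b, binds the branch point near its end. SR proteins mostly favour the use of nearby exons, and many hnRNP proteins repress it or coat the transcript. Several SR and hnRNP genes also splice their own transcripts into forms that are degraded, so their RNA levels are known to be tightly regulated.

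The assay was TT-seq, a measure of newly made RNA in which cells take up 4-thiouridine for 5 min and the labelled RNA is sequenced, introns included. All libraries came from E14 mouse embryonic stem cells grown without feeders in serum, leukemia inhibitory factor and inhibitors of GSK3 and MEK. The SPT16-AID cells carry V5 and an auxin-inducible degron at the C-terminus of SPT16 (gene Supt16), which with SSRP1 forms the histone chaperone FACT, in a pair of separately targeted clones. The auxin 3-indole-acetic acid (IAA, 500 nM) triggers loss of the tagged protein through osTIR1, which the labels list as integrated, with ethanol (EtOH) as the vehicle control. In the time course, 11 groups of 2 libraries each (22 in all) cover untagged cells before treatment and at 3, 6 and 12 h of IAA, and SPT16-AID cells before treatment and at 3, 6 and 12 h of either EtOH or IAA. The washout has 8 libraries of SPT16-AID cells, 4 per treatment: IAA or EtOH for 12 h, then fresh medium for 24 h, in lines 10E and 11D with 2 libraries each per treatment. The groups follow the sample titles, because the treatment text of many libraries contradicts them. The labels do not say whether libraries of a line came from separate cultures, so the tests measure the spread between libraries.

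Per-library counts exist for the washout only. The 8 libraries held 6547992 to 16554314 counts, with a mean of 14850538 in EtOH and 9733220 in IAA (exact two-sided permutation p = 0.0286, the smallest that 4 libraries against 4 allow). A set of 10 loci, here named ribosomal RNA-like, was chosen for being higher in IAA and so is described without a test. The origin of their reads was not checked by sequence. These loci took 9.85% ± 2.03 (SD, n = 4) of counts in EtOH and 38.5% ± 5.30 (SD, n = 4) in IAA. The summed level of 15 pluripotency markers ran from 3090 to 5221 CPM (counts scaled to a common library size) in EtOH and from 3538 to 4048 in IAA, with 1 marker at 0. The sums of 10 fibroblast, 10 mesoderm and 10 neural markers stayed at or below 9.02, 13.1 and 33.2 CPM in every library. The sums of 10 primitive endoderm markers were 142 to 274 CPM in EtOH and 123 to 268 in IAA, and those of 10 trophoblast markers 209 to 351 and 213 to 276. Single markers were called in edgeR at an adjusted p of 0.05, beside 16.4% of all genes. In IAA 1 of 14 tested pluripotency markers was lower and 2 of 7 primitive endoderm markers were higher. Of 3 mesoderm markers 1 was higher and 1 lower, and 1 of 2 neural markers was lower. Trophoblast and fibroblast markers had 0 calls. The part of cell state in the members' washout values was not tested. RNA of the degron target cannot show loss of the protein: Supt16 RNA was at 77.5 CPM in EtOH and 112 in IAA (log2 0.53 ± 0.18 SE, edgeR adjusted p = 0.0658), and that of its partner Ssrp1 at 37.6 and 43.0 (0.19 ± 0.15, adjusted p = 0.412).

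Promoter sequence is shown for Sf3b1 and Sf3b2, the members called in the washout over both lines, and for Srsf10, Srsf4 and Hnrnpf, whose upstream transcripts were called at 12 h. Windows of members called only in a gene table of the time course or within a line are not printed. The RefSeq windows (GRCm38.p6) run from 250 bases before to 50 bases after the annotated start, 5′ to 3′ on the gene's strand. Windows of 45 of the 52 members were used. A member without a window here is not thereby shown to lack an entry. Capitals mark exact matches on either strand to the GC box (GGGCGG), the CCAAT box (CCAAT), an ETS site (CCGGAAG) or a YY1 site (ATGGCGG); where matches overlap, the capitals run together. Sf3b1 lies on the minus strand at chr1:55027429-55027728, Sf3b2 on the minus strand at chr19:5295406-5295705, Srsf10 on the plus strand at chr4:135855821-135856120 (its start lies 324 bases inside the gene as counted), Srsf4 on the plus strand at chr4:131873387-131873686 and Hnrnpf on the plus strand at chr6:117900090-117900389.
Sf3b1: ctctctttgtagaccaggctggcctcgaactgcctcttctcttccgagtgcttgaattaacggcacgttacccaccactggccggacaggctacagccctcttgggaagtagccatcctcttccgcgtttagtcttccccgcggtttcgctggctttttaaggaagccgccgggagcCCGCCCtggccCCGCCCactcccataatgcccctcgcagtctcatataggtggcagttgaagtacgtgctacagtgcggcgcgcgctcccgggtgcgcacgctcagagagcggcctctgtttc
Sf3b2: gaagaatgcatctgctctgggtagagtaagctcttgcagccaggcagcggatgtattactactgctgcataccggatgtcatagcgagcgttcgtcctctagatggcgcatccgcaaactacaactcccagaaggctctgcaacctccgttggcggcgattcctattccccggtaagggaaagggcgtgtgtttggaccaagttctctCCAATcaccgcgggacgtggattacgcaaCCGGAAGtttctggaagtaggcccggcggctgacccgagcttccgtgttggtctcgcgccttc
Srsf10: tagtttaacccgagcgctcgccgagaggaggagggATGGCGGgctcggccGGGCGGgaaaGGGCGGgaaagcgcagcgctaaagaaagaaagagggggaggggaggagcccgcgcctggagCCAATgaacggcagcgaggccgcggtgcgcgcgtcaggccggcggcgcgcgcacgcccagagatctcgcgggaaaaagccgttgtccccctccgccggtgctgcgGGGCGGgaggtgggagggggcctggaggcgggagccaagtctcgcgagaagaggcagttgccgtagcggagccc
Srsf4: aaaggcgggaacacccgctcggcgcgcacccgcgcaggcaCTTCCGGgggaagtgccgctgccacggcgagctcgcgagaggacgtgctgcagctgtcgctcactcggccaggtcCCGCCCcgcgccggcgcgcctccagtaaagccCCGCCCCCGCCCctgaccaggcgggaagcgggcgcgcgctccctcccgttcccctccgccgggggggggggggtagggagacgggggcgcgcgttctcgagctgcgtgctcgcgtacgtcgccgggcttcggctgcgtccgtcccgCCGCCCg
Hnrnpf: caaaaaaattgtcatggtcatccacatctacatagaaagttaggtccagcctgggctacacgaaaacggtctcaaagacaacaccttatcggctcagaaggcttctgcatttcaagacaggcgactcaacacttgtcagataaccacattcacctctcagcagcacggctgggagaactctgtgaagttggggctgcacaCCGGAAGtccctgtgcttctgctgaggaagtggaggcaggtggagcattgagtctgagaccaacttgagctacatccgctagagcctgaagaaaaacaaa

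The Srsf4 window has 49 CpG dinucleotides and 77.7% G and C, and that of Hnrnpf 7 and 49.3%. The Sf3b1 window holds 2 GC boxes and that of Sf3b2 a CCAAT box and an ETS match. Srsf10 holds 3 GC boxes, a CCAAT box and a YY1 match, Srsf4 holds 4 GC boxes and an ETS match, and Hnrnpf holds an ETS match. Over all 45 windows, 32 (71.1%) held a GC box, against 35.7% of the 32851 windows in the table. Each of these members gave a single window, the nearest to its annotated gene start. No limit was set on that distance, which reached 1937 bases for Snrpc and 2349 for Hnrnpl. The members' set left out a chromosome, and with it Snrpd1, whether or not that gene has an entry. The 32851 windows were every entry of every gene, with no choice of the nearest and no chromosome left out. The shares and medians here therefore compare sets that were picked differently. An ETS match was in 16 (35.6%, against 8.86%), a CCAAT box in 21 (46.7%, against 37.4%) and a YY1 match in 9 (20.0%, against 4.05%). A TATA box (TATAAA) was in 6 (13.3%, against 13.6%), an E box (CACGTG) in 5 (11.1%, against 7.15%) and an NRF1 match (GCGCATGC) in 1 (2.22%, against 2.71%). The members' windows had a median of 60.3% G and C and 25 CpG dinucleotides, and all windows 52.7% and 7. The GC box, ETS and YY1 letters are themselves rich in G and C, and the part of base composition in these shares was not tested. These are matches of letters and do not show binding.

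As a group these genes had high levels of labelled RNA per kb of gene in vehicle-treated cells of the washout. Levels between genes are given as TMM-scaled CPM per kb of gene. The 51 members had a median of 5.55 CPM per kb in EtOH, against 0.932 over 14766 tested genes with a unique annotated position. The members were also shorter than those genes, with a median of 10.1 against 24.5 kb. Annotated exons covered a median of 35.5% of their length, against 17.1%. The part of length and exon cover in these levels was not tested. Srsf2, an SR protein that promotes exon inclusion, was highest at 46.4 ± 8.01 CPM per kb (SD, n = 4). Srsf3, the smallest SR protein, had 34.3 ± 5.19 CPM per kb, Hnrnpab had 29.8 ± 4.40 and Hnrnpa2b1, which also takes part in RNA transport, had 24.4 ± 3.8. These neighbours in the order lie within or close to each other's SD. At the low end, Srsf12 had 0.234 ± 0.0613 CPM per kb and Sf3b5, a small SF3b subunit, 1.33 ± 0.270. By family, the medians were 17.4 CPM per kb for SR, 6.73 for hnRNP, 4.66 for Snrp and 2.96 for SF3a and SF3b genes. The members together took 0.628% ± 0.0382 of all counts in EtOH and 0.439% ± 0.0763 in IAA (SD, n = 4), and 0.697% ± 0.0456 and 0.711% ± 0.0788 of the counts outside the ribosomal RNA-like loci.

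**Figure D1:**
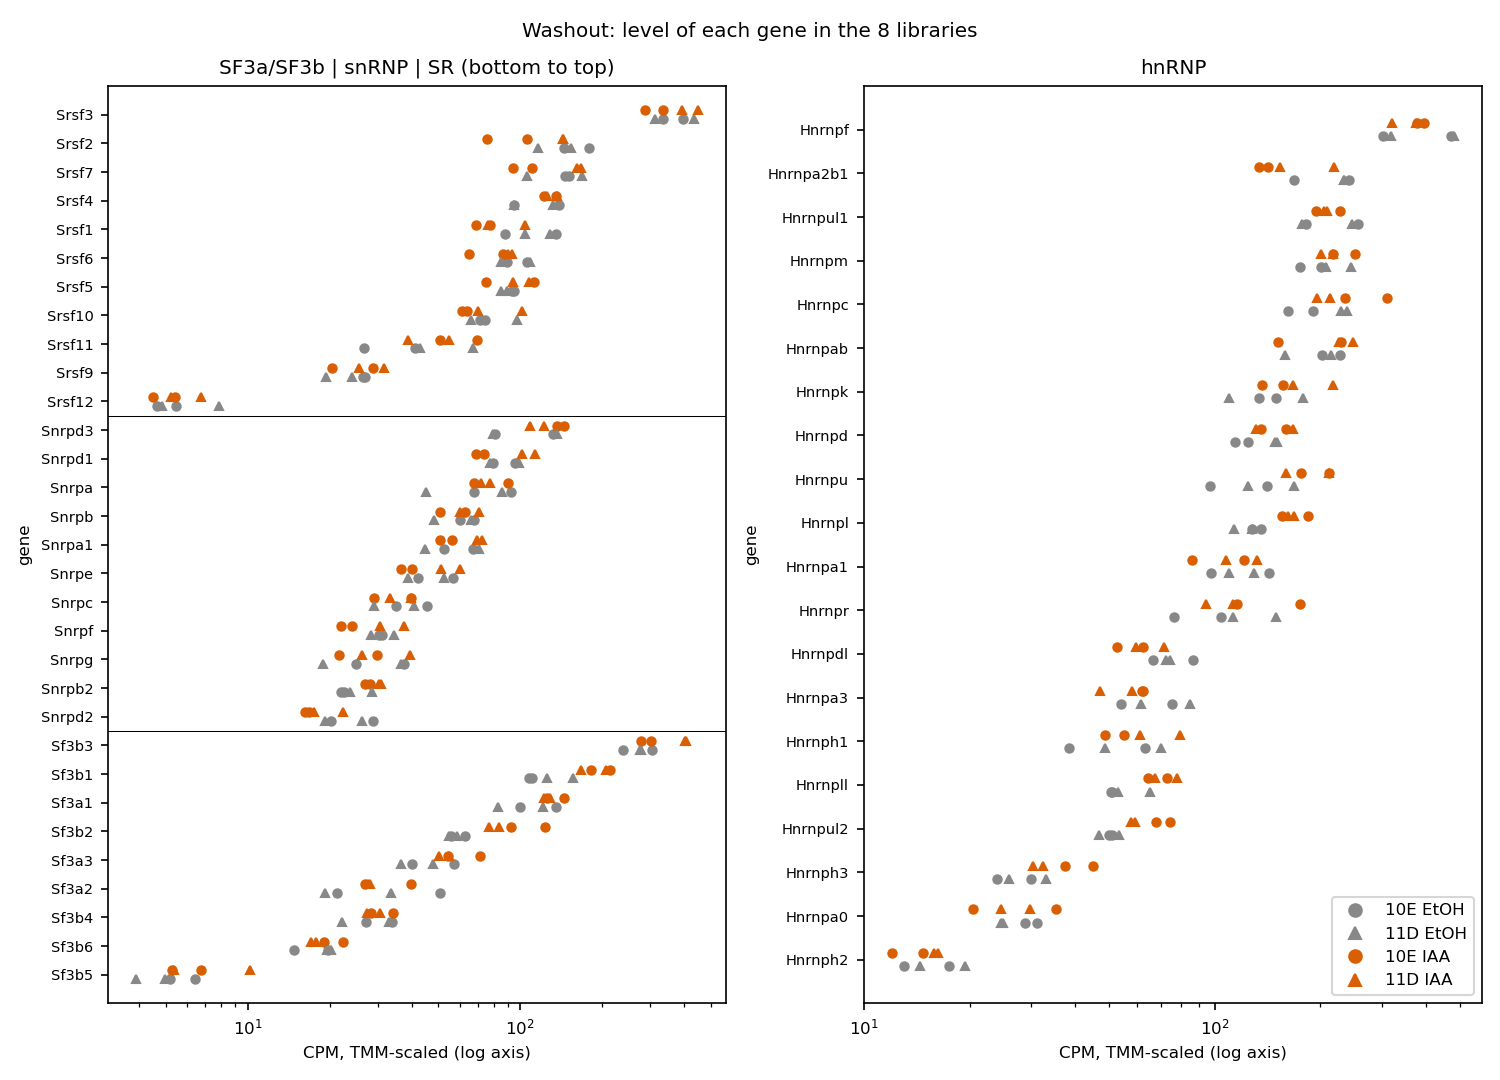
Level of each of the 51 tested members in the 8 washout libraries, as TMM-scaled CPM on a log axis. Grey is EtOH and orange is IAA, circles are line 10E and triangles line 11D, and each point is 1 library. For Sf3b1, Sf3b2, Hnrnpl and Hnrnpul2 all 4 IAA points lie to the right of all 4 EtOH points.

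The washout comparison asks what remains different 24 h after the auxin was taken away. Most splicing genes showed no call: 2 of 51 members passed an adjusted p of 0.05 in edgeR's quasi-likelihood test over 15110 genes, both higher in IAA, and 0 were lower. Over all tested genes, 16.4% were called and 8.83% were called higher in IAA, so the members' 2 of 51 is below that background. A rise can reflect more cells transcribing a gene or more RNA per cell, which bulk libraries cannot tell apart. The counts are scaled between libraries, so a rise is relative to other genes, and a change shared by most genes would not show. A further 6 members had an unadjusted p under 0.05, which made 8 of 51, beside 4881 of all 15110 genes. The members' log2 fold changes had a median of 0.07 (all genes −0.05), with 31 of 51 above 0 (all genes 46.4%). They ranged from −0.48 to 0.70.

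The called genes both encode large subunits of SF3b, the U2 component that holds the branch point. Sf3b1, its scaffold, lies at chr1:54985169-55027481 (mm10, minus strand, 42.3 kb). It had 107 and 111 CPM in the EtOH libraries of line 10E, 157 and 126 in those of 11D, 183 and 215 in the IAA libraries of 10E, and 207 and 167 in those of 11D. All IAA libraries were above all EtOH libraries, and Sf3b1 was 1.54-fold higher in IAA (log2 0.62 ± 0.17 SE, edgeR adjusted p = 0.0284). Sf3b2, which contacts RNA next to the branch point, lies at chr19:5273932-5295455 (mm10, minus strand, 21.5 kb). It had 62.8 and 55.7 CPM in EtOH of 10E, 58.4 and 54.6 in EtOH of 11D, 124 and 92.4 in IAA of 10E, and 76.6 and 83.5 in IAA of 11D. The groups did not overlap, and Sf3b2 was 1.62-fold higher in IAA (log2 0.70 ± 0.17, edgeR adjusted p = 0.0183).

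The calls did not hold with every library left out. With 1 library left out at a time, 0 to 3 members were called: 0 without EtOH library 10E_2 or IAA library 10E_1, Sf3b2 alone without EtOH 10E_1, IAA 10E_2 or IAA 11D_1, and 3, with Hnrnpu added, without EtOH 11D_2. The direction held in each of these fits, with a log2 range of 0.55 to 0.75 for Sf3b1 and 0.55 to 0.81 for Sf3b2.

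Of the other SF3 genes none was called, though 8 of the 9 SF3a and SF3b genes had a positive log2 fold change, with a median of 0.34. Sf3b3, an SF3b subunit with a propeller fold, had 239 to 304 CPM in EtOH and 278 to 406 in IAA, groups that overlap (0.34 ± 0.18, edgeR adjusted p = 0.212). Sf3a2, an SF3a subunit, was at −0.03 ± 0.29 with 19.2 to 50.8 CPM in EtOH and 27.0 to 39.6 in IAA. The Snrp genes, mainly Sm-ring and U1 or U2 proteins, had 6 of 11 positive values, a median of 0.01 and 0 calls. Their lowest was Snrpd2, an Sm-ring protein, at −0.37 ± 0.20 (edgeR adjusted p = 0.213).

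Among the hnRNP genes 13 of 20 values were positive, with a median of 0.12 and 0 calls. Hnrnpl, which regulates exons through CA-rich repeats, had 128, 135, 127 and 113 CPM in EtOH and 184, 155, 161 and 168 in IAA. The groups did not overlap, yet it missed the threshold (0.41 ± 0.15, edgeR adjusted p = 0.0763), while DESeq2 called it (0.42, adjusted p = 0.0250). The authors' deposited washout comparison called 0 of the 20 hnRNP genes, Hnrnpl included. Hnrnpu, a nuclear scaffold protein, had 97.2, 141, 124 and 168 CPM in EtOH and 177, 212, 212 and 159 in IAA (0.52 ± 0.19, edgeR adjusted p = 0.0825), with the lowest IAA library under the highest EtOH library. Hnrnpul2 had 50.7, 49.8, 53.5 and 46.8 CPM in EtOH and 74.3, 67.9, 57.6 and 59.2 in IAA (0.37 ± 0.15, edgeR adjusted p = 0.115). Pairs in the 30.9% of Hnrnpul2 that it shares with the same-strand gene AC129217.1 are not counted. Its groups did not overlap, which made 4 such members, all higher in IAA, where 23.1% of all tested genes had groups that do not overlap in either direction. Hnrnpa2b1 was lowest of the family at −0.44 ± 0.20 (edgeR adjusted p = 0.147), from 219 ± 34.1 CPM in EtOH to 162 ± 39.1 in IAA (SD, n = 4).

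The SR genes had 4 of 11 positive values and a median of −0.05, with 0 calls. Srsf1, the archetype of the family, had 88.3, 135, 129 and 104 CPM in EtOH and 77.5, 69.0, 104 and 76.3 in IAA. Most IAA libraries were lower but the groups overlapped, and its log2 fold change was −0.48 ± 0.19 (edgeR adjusted p = 0.100). Srsf3 had 369 ± 55.8 CPM in EtOH and 367 ± 70.4 in IAA (SD, n = 4; −0.01 ± 0.19). Hnrnpab, next to it in level per kb, was at 0.09 ± 0.19.

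**Figure D2:**
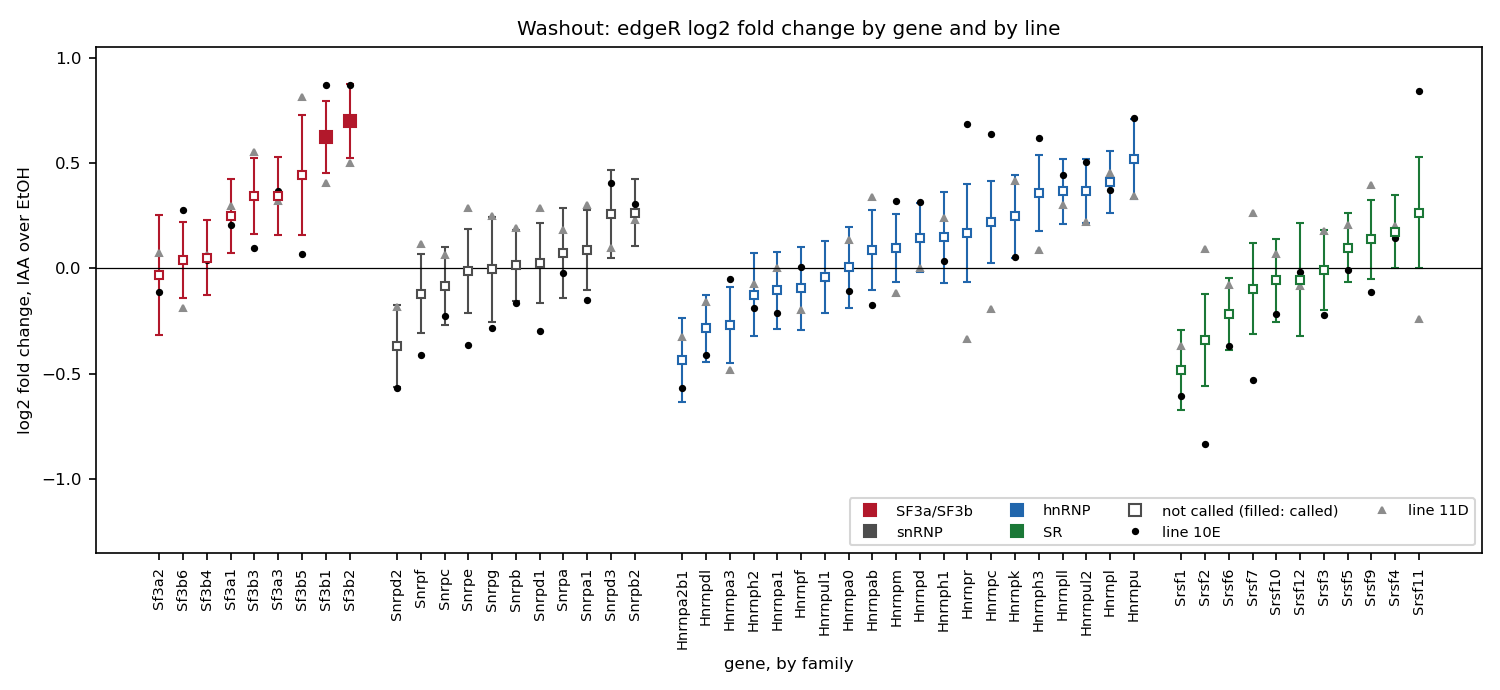
Washout log2 fold change, IAA over EtOH, of the 51 tested members by family (squares with SE; filled where edgeR's adjusted p is under 0.05), with the values within line 10E (black circles) and line 11D (grey triangles). Sf3b1 and Sf3b2 are the filled squares. For many members the values of the lines lie on opposite sides of 0. Among them are Srsf11, Hnrnpr, Hnrnpc, Srsf2 and Srsf7, and also Snrpd1, Snrpe and Hnrnpab.

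The lines gave different pictures for some genes. Within line 10E, where 17.2% of 16517 genes were called, 3 members passed in edgeR: Sf3b1 (0.87 ± 0.23, adjusted p = 0.0287) and Sf3b2 (0.87 ± 0.22, adjusted p = 0.0251) higher, and Srsf2 lower (−0.83 ± 0.25, adjusted p = 0.0421). Within line 11D, where 2.65% were called, 0 members passed. There 2 of 51 members and 3041 of all 16517 genes had an unadjusted p under 0.05. In that line Sf3b1 was at 0.40 ± 0.23 and Sf3b2 at 0.50 ± 0.22. Srsf2 had 145 and 178 CPM in EtOH and 106 and 75.5 in IAA of line 10E, and 154 and 116 in EtOH and 144 in both IAA libraries of 11D.

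By family, the Snrp genes had 2 of 11 positive values in line 10E (median −0.23) and 10 of 11 in line 11D (median 0.19), and the SR genes 2 of 11 (−0.22) and 7 of 11 (0.09). The SF3a and SF3b genes had 8 of 9 positive values in each line (medians 0.21 and 0.32), and the hnRNP genes 12 and 10 of 20. Over all 16517 genes, 45.9% were positive in 10E and 47.6% in 11D. No test was made of these family counts, whose genes share the same libraries.

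The test of the difference between lines called 0 members in edgeR, and 0.0% of all 16517 genes, with 5 members and 2345 genes at an unadjusted p under 0.05. DESeq2 called 135 genes and 0 members. The 5 members, as 11D minus 10E on the log2 scale, were Srsf11 (−1.08 ± 0.43), Hnrnpr (−1.02 ± 0.39), Srsf2 (0.92 ± 0.35), Hnrnpc (−0.83 ± 0.33) and Srsf7 (0.79 ± 0.36), with edgeR adjusted p from 0.299 to 0.350. Srsf11, Hnrnpr and Hnrnpc, each longer than 24 kb, had positive values in 10E and negative ones in 11D, and the short genes Srsf2 and Srsf7 did the reverse. Across the 51 members, Spearman's rho between log2 fold change and gene length was 0.63 in line 10E and 0.03 in line 11D, as a description over genes of the same libraries (0.40 and −0.11 over 14766 genes). The part of gene length in these values was not tested.

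The time-course tables hold the authors' comparisons, and the sources used here do not state which groups each compares or in which direction. Values are given as signed in the authors' deposited tables, whose folds are shrunken, with their SE and no n. In the authors' deposited 0 h table, 0 of 51 members were called, at a background of 0.376%, and all their shrunken values rounded to 0.

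At 3 h the members shared a sign rather than calls. In the authors' deposited 3 h table, 41 of 51 members had a positive value (80.4%, against 47.7% of the 10920 genes with an adjusted p), with a median of 0.06, and 16 had an unadjusted p under 0.05. Of all 21859 genes in that table, those without an adjusted p included, 1563 did. Sf3b5, the only member called, was at 1.09 ± 0.40 in the authors' deposited table (adjusted p = 0.0497, mean normalised count 298), where 0.577% of genes were called and 0.531% called positive. Next in the authors' deposited table came Srsf1 (0.62 ± 0.29, adjusted p = 0.0983), Srsf2 (0.51 ± 0.32, adjusted p = 0.154) and Sf3a2 (0.46 ± 0.23, adjusted p = 0.120).

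These are compact genes. Exonic share is the percentage of the gene's length that any annotated transcript uses as exon: 100% for Sf3b5, 89.5% for Srsf1, 92.6% for Srsf2 and 39.5% for Sf3a2. Srsf2 overlaps Mfsd11 and Mettl23 on the other strand over up to its whole length, and whether these tables were counted by strand is not given in the sources used here. Genes of the authors' deposited 3 h table with an adjusted p and a unique annotated position were cut into 5 equal bins of exonic share. In the highest bin fell 25 members, 22 of them positive, where 84.6% of all such genes were positive. In the next bin 14 of 15 members were positive (all such genes 62.7%), in the middle bin 4 of 6 (45.5%), in the second lowest 1 of 5 (28.4%), and the lowest held none. The part of exonic share in the sign count was not tested.

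At 6 h, 2 members were called in the authors' deposited table, where 3.1% of genes were called. Sf3a2 was positive (0.95 ± 0.33, adjusted p = 0.0193) and Hnrnpf, which binds G-rich runs, was negative (−0.54 ± 0.23, adjusted p = 0.0456), both in the authors' deposited table. Hnrnpr (−0.50 ± 0.22, adjusted p = 0.0610) and Snrpd1 (−0.40 ± 0.22, adjusted p = 0.120) followed in the authors' deposited table without a call. Of the 51 members 24 were positive.

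At 12 h the calls were all negative. In the authors' deposited 12 h table, 7 of 51 members were called negative (13.7%) and 0 positive, where 20.7% of genes were called, 12.1% negative and 8.58% positive, so the negative share is near the background. Cell-state markers in the same authors' deposited table were called too: 8 of 15 pluripotency markers negative and 0 positive (median −0.62), 3 of 8 neural markers with an adjusted p positive, 2 of 10 primitive endoderm markers positive and 2 negative, 1 of 8 trophoblast markers negative, 1 of 5 mesoderm markers positive and 0 of 5 fibroblast markers. The part of cell state in the members' values was not tested. Sf3b3 was lowest (−1.19 ± 0.27, adjusted p = 4.34e-05) in the authors' deposited table, and Hnrnpf followed (−1.15 ± 0.29, adjusted p = 0.000255). The authors' deposited table gave −0.89 ± 0.28 (adjusted p = 0.00275) for Hnrnpr, an RNA-binding relative of Syncrip, and −0.74 ± 0.20 (adjusted p = 0.00103) for Snrpd1, an Sm-ring protein.

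The remaining calls were smaller. Hnrnpm, which represses exons through GU-rich sequence, had −0.69 ± 0.22 in the authors' deposited table (adjusted p = 0.00528), while Hnrnpul1 stood at −0.59 ± 0.21 (adjusted p = 0.0117) and Srsf4 at −0.47 ± 0.20 (adjusted p = 0.0464). Just outside the threshold in the authors' deposited table were Hnrnpll (−0.46, adjusted p = 0.0586), Srsf10 (−0.54, adjusted p = 0.0611) and Srsf3 (−0.50, adjusted p = 0.0624). The highest values there were Srsf9 at 0.28, Hnrnpul2 at 0.27 and Snrpb2 at 0.26, all uncalled.

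**Figure D3:**
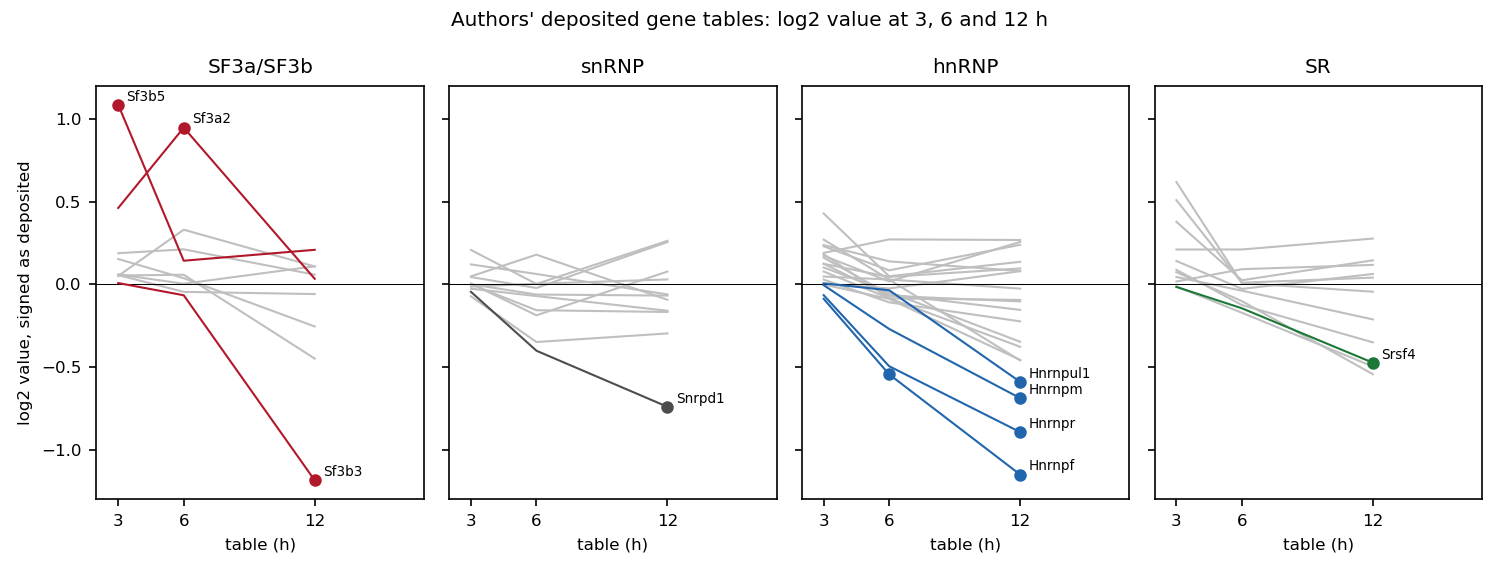
Log2 values of the 51 members in the authors' deposited gene tables at 3, 6 and 12 h, by family, signed as deposited. Filled points and named lines mark an adjusted p under 0.05 and grey lines are members with none. The filled points are Sf3b5 at 3 h, Sf3a2 and Hnrnpf at 6 h, and 7 negative genes at 12 h, of which Hnrnpf was also called at 6 h.

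The 12 h calls fell among the long members. All 7 called genes span 24.3 to 48.5 kb, while the median member spans 10.1 kb. In the authors' deposited 12 h table, 7 of the 12 members of at least 24 kb were called negative and 0 of the 39 shorter ones, a length chosen after the values were seen. The split is less sharp than these calls. In that table the shorter Srsf10 (14162 bases, −0.54, adjusted p = 0.0611) and Srsf3 (10746 bases, −0.50, adjusted p = 0.0624) just missed the threshold. Both values were lower than that of the called Srsf4 (−0.47). Over all genes with an adjusted p there, 18.2% of those of at least 24 kb and 5.79% of shorter genes were called negative. The 5 long members with no call in the authors' deposited table were Hnrnpll, Sf3b1 (−0.25), Hnrnpc (−0.22), Srsf11 (−0.21) and Srsf12 (0.12). Spearman's rho of the 12 h value with gene length was −0.55 over the 51 members and −0.33 over 15513 genes, as a description.

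None of these 7 genes was called in the washout. There, Sf3b3 was at 0.34 ± 0.18 in edgeR, Hnrnpr at 0.17 ± 0.23, Srsf4 at 0.17 ± 0.17, Hnrnpm at 0.10 ± 0.16, Snrpd1 at 0.03 ± 0.19, Hnrnpul1 at −0.04 ± 0.17 and Hnrnpf at −0.10 ± 0.20. Hnrnpf had 470.0, 301, 480.2 and 317 CPM in EtOH and 396, 376, 320.1 and 376 in IAA, so the IAA values lie within the EtOH range. Sf3b1 and Sf3b2, called in the washout, were at −0.25 ± 0.28 and 0.06 ± 0.35 at 12 h in the authors' deposited table, uncalled.

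**Figure D4:**
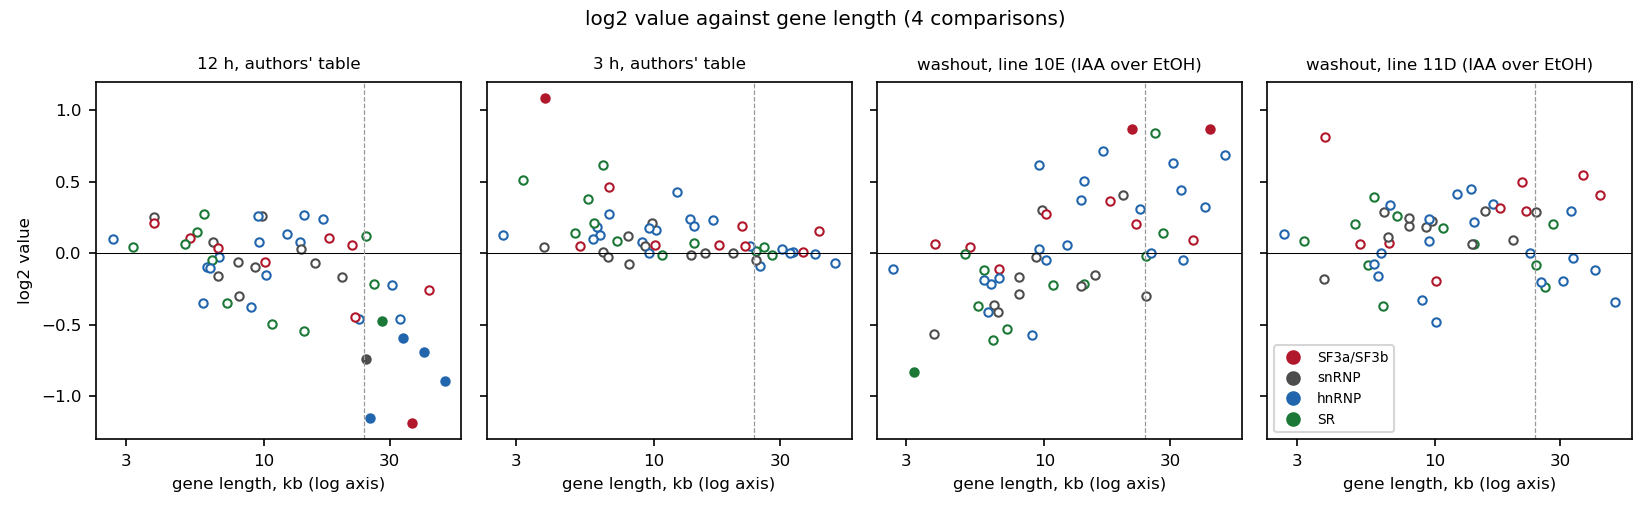
Log2 value of each member against gene length in kb (log axis) in the authors' deposited 12 h and 3 h tables, signed as deposited, and in the washout within lines 10E and 11D, IAA over EtOH. Filled points have an adjusted p under 0.05, colours are families and the dashed line is at 24 kb. At 12 h all 7 filled points lie right of the line, and in line 10E the longer genes lie higher.

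PROMPTs are short unstable transcripts made upstream of promoters, mostly in the opposite direction. The authors' deposited PROMPT tables held 38 of the members, of which 31, 35 and 22 had an adjusted p at 0, 3 and 6 h. At these times 0 of them were called, where 0.00821%, 0.0% and 0.122% of all tested PROMPTs were called. At 12 h, 3 of the 16 members with an adjusted p were called in the authors' deposited table, where 5.05% of 3052 were.

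The PROMPT of Srsf10, an SR protein that can act as a repressor, was at −2.58 ± 0.53 (adjusted p = 5.28e-05, mean normalised count 37.9) in the authors' deposited 12 h table. The PROMPT of Srsf4 was at −1.29 ± 0.47 in that authors' deposited table (adjusted p = 0.0278, mean normalised count 37.8), the same sign as its gene. The PROMPT of Hnrnpf was at 4.66 ± 1.59 in the authors' deposited table (adjusted p = 0.00584), opposite in sign to its gene, on a mean normalised count of 3.98. Hnrnpf has the window poorest in CpG among those printed, and Srsf4 and Srsf10 the richest. These 3 windows were printed because their PROMPTs were called, and the part of CpG content in the PROMPT values was not tested.

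Other splicing genes, from lists chosen with earlier results of these data known, were tested in the same washout fit. Of 52 tested core spliceosome genes outside the member families, 14 were called in edgeR, 13 of them higher in IAA (median 0.22), beside 16.4% called and 8.83% called higher over all genes. Prpf8, the protein at the catalytic centre, had 88.3 CPM in EtOH and 257 in IAA (1.54 ± 0.22, edgeR adjusted p = 0.00129). Sart1 (1.23), the helicase-like Aqr (1.00) and the helicases Dhx38 (0.95) and Dhx8 (0.92) were also higher, and Txnl4a, a U5 particle protein, was lower (−0.92 ± 0.21, edgeR adjusted p = 0.0129).

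Read against the same shares, in the minor spliceosome list Pdcd7 was called higher (0.76), 1 of 6. Of 22 kinases and SR-related genes Srrm2, a large nuclear speckle protein, was called higher (1.00), and of 36 other splicing regulators Khdrbs1 (0.76) and Ilf2 (0.62) were. At 12 h in the authors' deposited table, 6 of 52 core genes were called negative and 0 positive, near the 12.1% negative over all genes, with Txnl4a lowest at −1.83. Among kinases and SR-related genes, the authors' deposited table had 10 of 22 negative and 0 positive, with Luc7l3, a U1-associated protein, at −1.08. Against the same 12.1% negative and 8.58% positive over all genes, the authors' deposited table also had 1 of 6 minor spliceosome genes negative, and 7 of 36 other regulators negative and 3 positive, among them Tia1 at −1.56, Qk at −1.31, Esrp1 at 1.45 and Mbnl3 at 1.45.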

How the data were processed

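TT-seq libraries of E14 mouse embryonic stem cells were analysed from deposited tables. For the washout, raw counts of read pairs per gene were deposited: per the file headers, featureCounts 2.0.1 counted reverse-stranded pairs over whole genes (introns included) by gene name on mm10, so antisense genes are kept apart. No option for pairs shared by same-strand genes or for multi-mapping pairs was set, so members with near-identical pseudogenes may be undercounted. The authors also deposited their own washout comparison of IAA against EtOH. Per the submitters' processing notes, STAR and deepTools were used. For the time course, the authors deposited comparison tables with a mean normalised count (a signal of coverage per feature), shrunken log2 fold changes with SE, and p-values, raw and adjusted. Their groups, their direction and the statistics tool are not given in the sources used here.

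Counts were tested with edgeR 4.0.16 (quasi-likelihood, robust, TMM, filterByExpr, Benjamini-Hochberg at 0.05) over all genes, without a block. The SE is the log2 fold change over the root of F. Alternatives were DESeq2 1.42.0, other scalings, no filter, blocks and leaving out each library. The scripts were checked on simulated counts. Genes named are all called members, the 4 uncalled with the highest level per kb, the 4 with the smallest adjusted p and the 3 highest and 3 lowest, plus up to 5 called genes per companion list and direction. Others were chosen after their values were seen. Members and lists were chosen with earlier results of these data known. Enhancer and DNase-site tables carry no gene names and were not used. Line is a pairing by design, since both treatments used the same lines. Gene positions and exonic shares come from GENCODE M21.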

Additional observations from a re-analysis of the deposited data

Results flagged for a closer look

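In each washout group of 4 libraries, the CPM of every tested member was checked for a library far from the others, taken as a gap to the nearest library that exceeds Dixon's critical value at the 95% level as a share of the group's range. Over 102 groups 4 passed, and chance alone flags about 1 in 20 groups, so this number is within what chance gives. Hnrnpa2b1 was at 168 CPM in EtOH library 10E_1, with the nearest EtOH library at 233. Sf3a2 was at 39.6 CPM in IAA library 10E_1, with the nearest at 28.0. Sf3b6 was at 14.8 CPM in EtOH library 10E_2, with the nearest at 19.6. Hnrnpll was at 65.4 CPM in EtOH library 11D_1, with the nearest at 52.9. None of these 4 genes was called in the washout.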

How the results depend on the processing

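The 2 member calls of the washout, Sf3b1 and Sf3b2, were also made with DESeq2 size factors, upper-quartile scaling, the ribosomal RNA-like loci left out and no filter on low counts, and DESeq2 itself called 3 members. The authors' deposited washout comparison called 2 members, both of them SF3a or SF3b genes. At an adjusted p of 0.01, 0 members and 778 of all genes were called. Leaving out each library gave 0 to 3 members and 1415 to 2641 genes, against 2483; the count was 1415 without IAA library 10E_1 and 1555 without EtOH library 10E_2. With line as a replicate block the same 2 members were called; with line and number as the replicate block 1 was (Sf3b2), and Sf3b1 missed the threshold (edgeR adjusted p = 0.0757). Between the EtOH and IAA libraries of the same line and number, deviations from the treatment means correlated at 0.345, −0.497, −0.315 and −0.0266. Those means were taken over both lines, so the correlations mix line with number. They cannot show whether numbers within a line pair the libraries. The line-by-treatment test called 0 members under every alternative run. Members called by the authors' adjusted p were 2 at 0.1 and 0 at 0.01 for 3 h, and 0 at 0.01 for 6 h. Outside the ribosomal RNA-like loci the members' share was 0.697% in EtOH and 0.711% in IAA. DESeq2 called 4 of the other splicing regulators in place of 2.

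Sign changes were seen for members not called in the washout. Snrpd1 was at −0.026 under upper-quartile scaling, −0.032 with no filter and −0.0034 with line as the replicate block, and ranged from −0.11 to 0.14 with 1 library left out. Srsf3 was at 0.00079 in DESeq2, 0.017 with its size factors and 0.017 without the ribosomal RNA-like loci, with a range of −0.12 to 0.098. Sf3a2 was at 0.063 with line and number as the replicate block, with a range of −0.21 to 0.3 (its highest value, 0.301, was without EtOH library 10E_1). With 1 library left out, Hnrnpab ranged from −0.013 to 0.23, Hnrnpr from −0.037 to 0.34, Hnrnpf from −0.21 to 0.016 and Hnrnpul1 from −0.13 to 0.049. The cause was not tested. Counts outside the ribosomal RNA-like loci were fewer in IAA than in EtOH libraries, and the lowest tested members, Sf3b5 and Srsf12, had 23 to 167 counts a library; how depth bears on their calls was not tested.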
